A study of Mus musculus with 12 samples.

Results

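The synaptotagmins described here are 8 genes of the mouse, Syt1, Syt2, Syt4, Syt5, Syt6, Syt7, Syt11 and Syt13, followed in the embryonic thalamus with and without the transcription factor Gbx2. They were picked from measured values of these same arrays, among them the difference between genotypes, so their values are given below as a description and without a test. The 8 genes are part of the 23388 genes that stand behind the probes shared by both array types. Symbols in the files assign 17 probes to them, of which 11 are present on both array types and 6 on the second only. One more shared probe carries a clone name, B230112P13Rik, that the gene table lists as a synonym of Syt7.

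Synaptotagmins are membrane proteins of vesicles with a pair of C2 domains facing the cytoplasm. In the classical members these domains bind calcium and phospholipids and couple calcium entry to vesicle fusion by SNARE proteins, whereas other members lack the residues that bind calcium and act in trafficking steps that are less well understood. In the embryonic thalamus young neurons leave the cell cycle, extend axons towards the cortex and begin to switch on the genes of the release machinery.

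Thalamus was microdissected from CD1 mouse embryos at E12.5, and its RNA was measured on Illumina bead arrays, on 2 chips with different probe sets. Chip 1 carried wild-type (WT) thalamus replicates 1 and 2, Gbx2 knockout (KO) thalamus replicates 1 and 2, and 1 array each of WT epithalamus and WT prethalamus. Chip 2 carried WT and KO thalamus replicates 3, 4 and 5. Both arrays of replicate 5 are marked as excluded outliers, which leaves 4 WT and 4 KO arrays. The labels give the KO as the loss of Gbx2 with no further allele, and they do not say how many embryos stand behind an array. The standard errors (SE) below therefore concern arrays and not embryos. They come from limma, which moderates the spread between the arrays of a gene towards that of all genes or probes in the fit. Values are background-corrected, quantile-normalised log2 intensities, and since the chips were normalised apart, a level on chip 1 is not set against one on chip 2.

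The share of probes detected was 30.7% to 36.0% on chip 1 and 44.8% to 46.4% on chip 2. Gbx2 itself measured 13.73 and 13.30 in WT and 13.04 and 12.77 in KO on chip 1, and 15.94 and 15.73 in WT and 13.76 and 14.05 in KO on chip 2. It fell by 1.27 (SE 0.27, 4 against 4 arrays, limma adjusted p = 0.0408) and remained bright in KO; the labels do not place its probe relative to the deletion. The array labelled epithalamus measured 1 or more above both WT thalamus arrays in 7 of 7 pretectal and midbrain genes compared. Of 6 habenular and epithalamic genes compared it was higher in 2, Nr4a2 and Msx1, and lower in 2, Etv1 and Gng8. The prethalamus array was higher in 6 of 7 prethalamic and GABAergic genes. WT replicate 2 stood apart from WT replicate 1 in GABAergic genes: Gad1, which makes GABA, measured 8.70 on it and was not detected on replicate 1, and Slc32a1 measured 8.73 against 5.82. Without WT replicate 2 the KO minus WT difference of Syt13 was -2.11 and that of Syt5 -1.16. The excluded WT array of replicate 5 went against its label: its 8 measured caudal thalamus genes lay on average 1.32 below the kept WT arrays, and those of the excluded KO array 1.48 below. Gbx2 is among these 8 genes.

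The probes are shown first because the assignment of signal to a single family member rests on them. Each is the opening 30 bases of a 50-base probe, decoded from the identifier (nuID) that encodes its sequence in the array annotation. No base is set in capitals, since no motif is compared.
Syt13: gacgaccacagttgaattttcttcttgtgc
Syt5: tctgcggccccctgacagagccaggccaat
Syt1, first probe: gctcgtggcccgcgagccaactcctttagc
Syt1, second probe: tgcagcgacagcatccgcagttagcagtgg
Syt7, clone-named probe: tgacgctccatcctgagctgctcccatctg
Syt7, a probe named Syt7: ggagtttattctaaacatttcaccctacgc
Syt11: ctcgccatcagctgggatcacaccactagt
Over their 50 bases, the 11 shared probes compared, with the clone-named one and without that of Syt4, had no run longer than 10 bases in common with a probe of another gene of the family. The longest run that one of them shared with a probe of any other gene was 16 bases. Probes were compared with probes and not with transcripts, so these runs cannot tell whether a probe also binds RNA of another member. The Syt11 probe carries an uncharacterised locus name in the joined table and the symbol Syt11 in the chip 2 table, and is counted as Syt11.

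The member with the widest difference between genotypes was Syt13, which fell in the KO thalamus and was lower still outside the thalamus. Of the 5 members that could be compared over both chips, Syt13, Syt5, Syt1, Syt7 and Syt11, all had a negative KO minus WT difference, between -0.11 for Syt11 and -1.86 for Syt13. Syt4 was measurable only by a chip 2 probe, Syt6 only on 2 arrays of chip 1, and Syt2 on none. The 5 were compared because their probes were detected on at least 4 of the 8 arrays, a filter that the other 3 did not pass. In bulk tissue such differences cannot tell fewer cells of a type from less RNA per cell.

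One of the 5, Syt13, was among the genes called at an adjusted p under 0.05, beside 2.87% of the 10396 genes tested in either direction and 1.48% called lower. In 4 of the 5, every KO array lay below every WT array of its chip, beside 9.74% of all genes tested. The median difference of the 5 was -0.65, and that of all genes tested -0.02. Of all genes tested 5434 had a negative difference. Nothing is read from these counts and medians, since the same contrast chose the members.

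**Figure D1:**
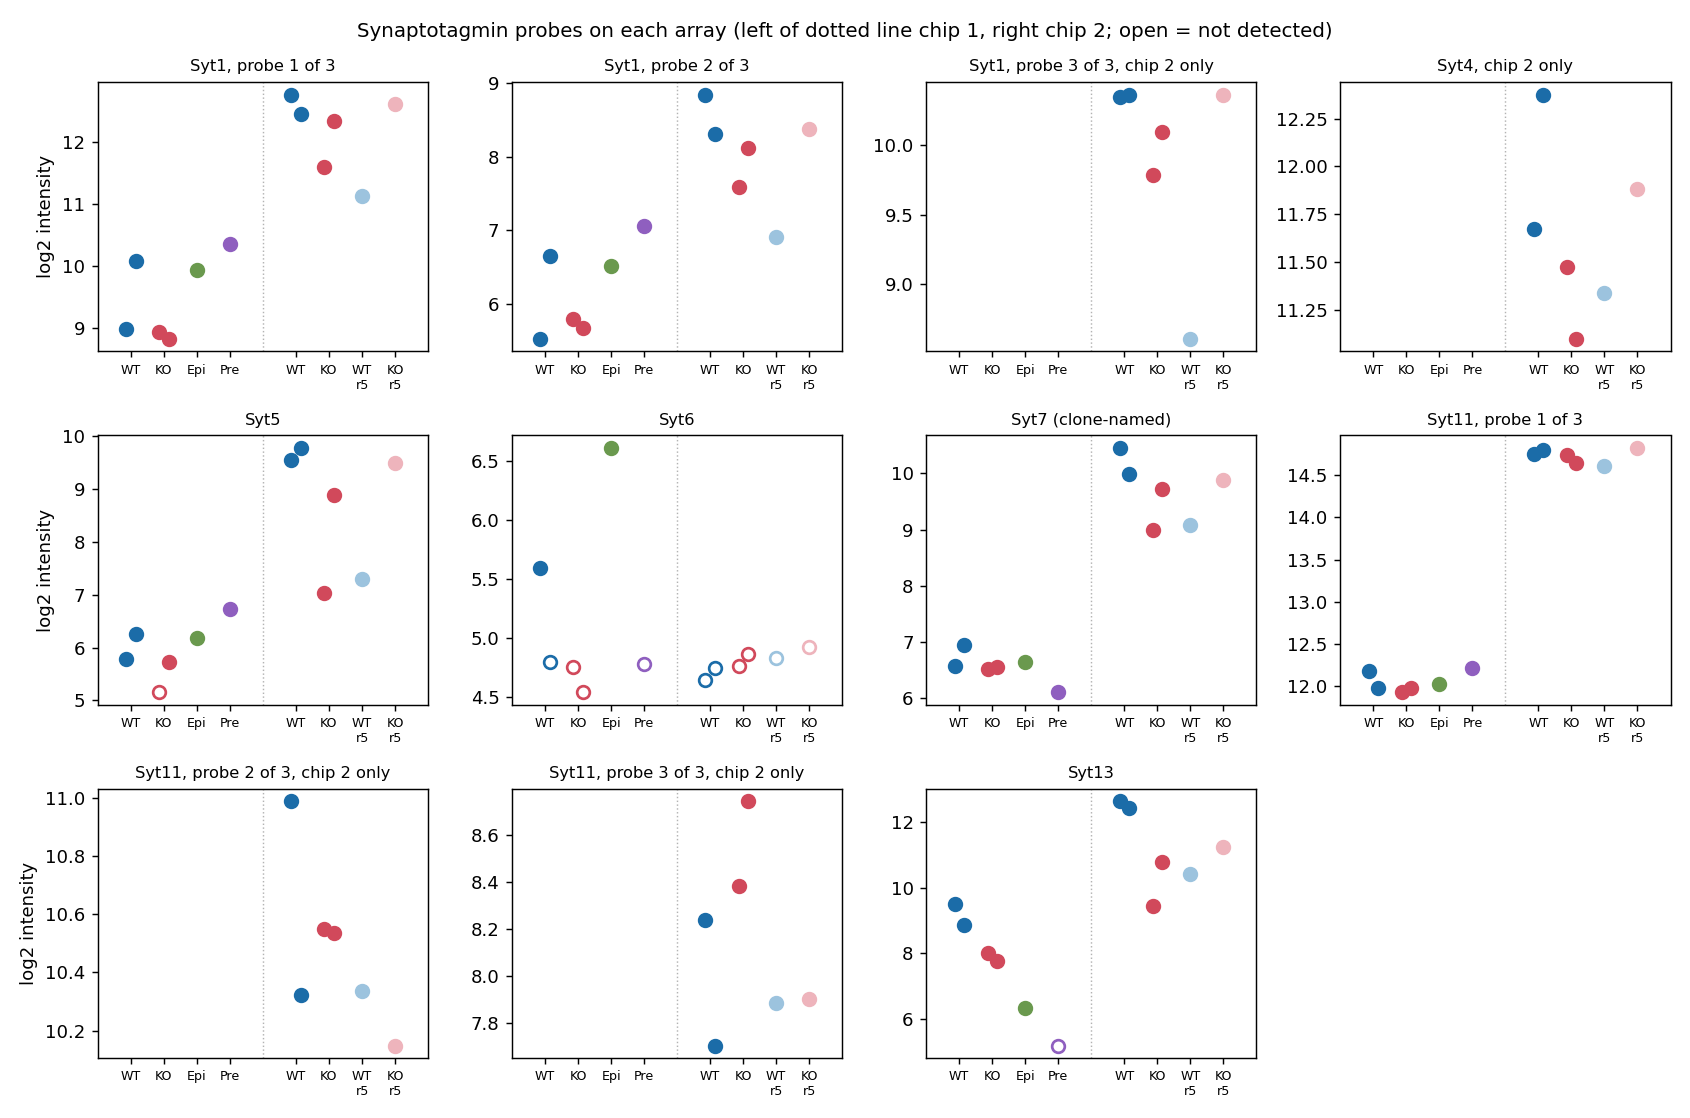
Log2 intensity (vertical axis, own scale in each panel) of each synaptotagmin probe detected on at least 4 arrays, and of the Syt6 probe, with 1 point per array; chip 1 stands left of the dotted line and chip 2 right of it, Epi is epithalamus, Pre is prethalamus and r5 the excluded replicate 5. Syt13 is low in all 4 kept KO arrays and lowest in the prethalamus, where it was not detected (open point), while the shared Syt11 probe (1 of 3) lies between 11.93 and 12.22 on chip 1 and between 14.61 and 14.82 on chip 2.

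Syt1 is the calcium sensor for fast, synchronous transmitter release in forebrain neurons. Its brighter probe measured 8.99 and 10.09 in WT and 8.95 and 8.82 in KO on chip 1. On chip 2 it measured 12.77 and 12.46 in WT and 11.60 and 12.33 in KO. The groups did not overlap on either chip, but on chip 1 the lower WT array stood only just above the KO arrays. The difference was -0.65 (SE 0.26, 4 against 4 arrays), with -0.65 on chip 1 and -0.64 on chip 2, and Syt1 was not called.

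Without WT replicate 2 the difference was -0.43.

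The other Syt1 probes also had negative differences. The second shared probe measured 5.52 and 6.65 in WT and 5.79 and 5.67 in KO on chip 1, where the groups overlapped. It measured 8.84 and 8.30 in WT and 7.58 and 8.12 in KO on chip 2, where they did not. Its difference was -0.35 on chip 1, -0.72 on chip 2 and -0.54 (SE 0.27) over both. The chip 2 probe measured 10.34 and 10.36 in WT and 9.78 and 10.09 in KO, a difference of -0.42 (SE 0.29).

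Syt2, the fast calcium sensor of many hindbrain and spinal synapses, was below detection on every array. Its probe lay between 4.56 and 4.65 on chip 1 and between 4.62 and 5.02 on chip 2, and so gives no difference.

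Syt5, a calcium-binding member found on secretory vesicles, had the second widest difference. It measured 5.78 and 6.26 in WT and 5.15 and 5.72 in KO on chip 1, near background and not detected in KO replicate 1. On chip 2 it measured 9.55 and 9.78 in WT and 7.03 and 8.89 in KO. Groups did not overlap on either chip, and KO replicate 3 was by far the lowest of the kept arrays of chip 2. The difference was -1.14 (SE 0.40, 4 against 4 arrays), with -0.59 on chip 1 and -1.70 on chip 2, and Syt5 was not called. Without KO replicate 3 the difference was -0.66.

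Syt7, a high-affinity calcium sensor of slow and asynchronous release and of lysosome fusion with the plasma membrane, was seen only through the clone-named probe. That probe measured 6.58 and 6.95 in WT and 6.53 and 6.57 in KO on chip 1. It measured 10.45 and 9.99 in WT and 8.99 and 9.71 in KO on chip 2, and the difference was -0.55 (SE 0.23), with -0.22 on chip 1 and -0.87 on chip 2. The groups were separate on both chips but nearly touched on chip 1, and without KO replicate 3 the difference was -0.34. The 3 probes that carry the symbol Syt7 were detected on none of the 8 arrays, so the level of Syt7 rests on a name in the gene table.

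Syt6 belongs to a subgroup of members that form disulfide-linked dimers. Its shared probe was detected in WT replicate 1, at 5.60, and in the epithalamus, at 6.62, and on no other array. Both further probes, on chip 2 only, were not detected. No difference between genotypes is given for it.

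Syt4 and Syt11 are closely related members in which a substitution in the first C2 domain weakens calcium binding. The chip 2 probe of Syt4 measured 11.67 and 12.38 in WT and 11.47 and 11.09 in KO, with no overlap between the groups and a difference of -0.74 (SE 0.35, 2 against 2 arrays). The shared Syt4 probe was detected on none of the 8 arrays, so the gene has no value on chip 1.

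Syt11 was the steadiest member. It measured 12.19 and 11.99 in WT and 11.93 and 11.99 in KO on chip 1, and 14.75 and 14.79 in WT and 14.74 and 14.64 in KO on chip 2. The difference was -0.11 (SE 0.14), smaller than its error. Of the probes on chip 2 only, one had a difference of -0.11 and the other of 0.59, the only positive difference among the detected probes of the 8 genes; this last probe measured 8.24 and 7.70 in WT and 8.38 and 8.75 in KO. The probes of Syt11 thus disagreed in sign on chip 2.

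Syt13 is an atypical member without the residues that bind calcium and is thought to act in vesicle trafficking and secretion. On chip 1 it measured 9.52 and 8.85 in WT and 8.01 and 7.77 in KO. On chip 2 it measured 12.66 and 12.43 in WT and 9.43 and 10.79 in KO. Every KO array lay below every WT array of its chip, and KO replicate 3 was the lowest on chip 2. The difference was -1.86 (SE 0.34, 4 against 4 arrays), a level 3.63-fold lower in KO, with -1.29 on chip 1 and -2.43 on chip 2.

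As a description, since the same values chose the gene, Syt13 was no longer called without WT replicate 3, WT replicate 4, KO replicate 1, KO replicate 2 or KO replicate 4, with differences of -1.70, -1.79, -2.02, -1.93 and -2.02. On chip 2 alone 10 probes of 6 members were tested and 0 were called lower by limma, beside 0.426% of the 21369 probes of that chip; at an unadjusted p under 0.05 limma counted 3869 probes of the chip in either direction. On that chip Syt13 was among the probes called without WT replicate 3, without WT replicate 4, without KO replicate 4 and with a replicate block, and Syt5 in the last 2 of these fits.

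**Figure D2:**
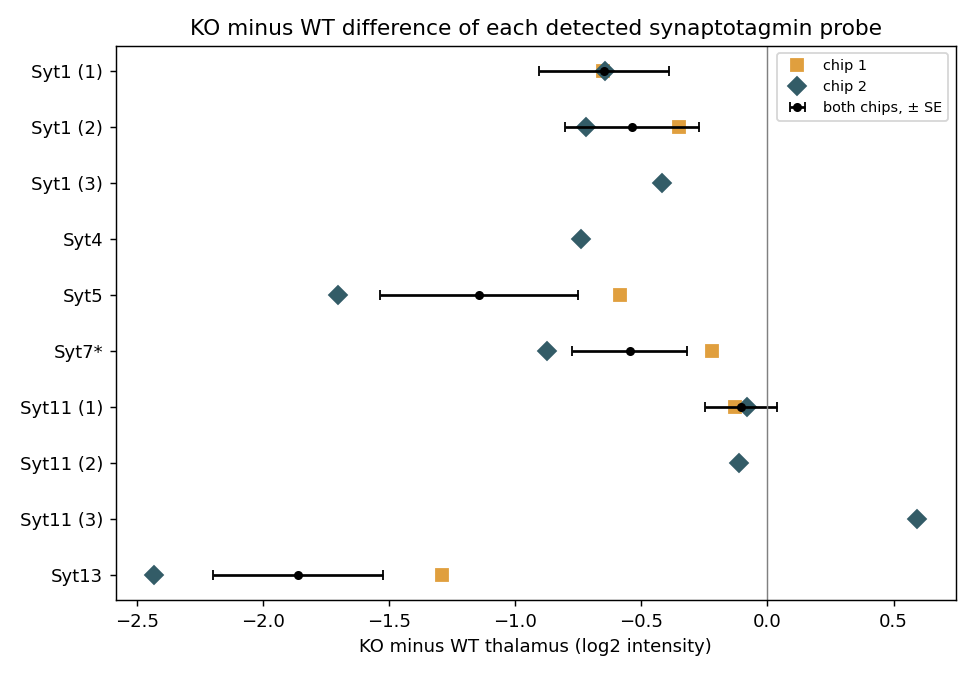
KO minus WT difference in log2 intensity (horizontal axis) for each synaptotagmin probe detected on at least 4 arrays, on chip 1 (squares), on chip 2 (diamonds) and over both chips with its standard error (circles with bars, 4 against 4 arrays); numbers in brackets tell probes of 1 gene apart and the asterisk marks the clone-named probe. Syt13 lies farthest left at -1.86, the circles of the shared Syt1 probes lie at -0.65 and -0.54, and 1 chip 2 probe of Syt11 lies to the right of 0 at 0.59.

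The arrays that the labels exclude gave the opposite order for most members. On these, KO minus WT was 0.83 for Syt13, 2.20 for Syt5, 1.49 for the brighter Syt1 probe and 0.80 for the Syt7 probe. It was 0.55 for the chip 2 probe of Syt4 and 0.22 for the shared Syt11 probe. Syt13 measured 11.26 on the excluded KO array and 10.44 on the excluded WT array, both below the kept WT arrays of the chip. With both arrays included the difference of Syt13 was -1.33 and it was not called.

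Markers of cell types are given beside these values, and their part in the members' differences was not tested. At an unadjusted p under 0.05 limma counted 2168 of the 10396 genes tested, in either direction. The counts of each list at that p, here and below, stand beside this share. The mean of 9 measured genes of postmitotic neurons, relative to the WT mean of each chip, was -0.15, -0.11, -0.66 and -0.09 in KO replicates 1 to 4. Of these 9 genes 0 were called by limma and 3 had an unadjusted p under 0.05, with a median difference of -0.23, and the smallest p belonged to Dcx, a microtubule protein of migrating neurons, at 0.62 (SE 0.16, adjusted p = 0.0799). The mean of 10 cell cycle genes was 0.78, 0.73, 1.69 and 0.91 in the KO arrays, and 0.51, -0.51, -0.03 and 0.03 in WT replicates 1 to 4. Of the 10, 4 rose by the limma test, among them Birc5, a mitotic survivin, by 1.14 (SE 0.19, adjusted p = 0.0197), Tyms by 1.08 (SE 0.19, adjusted p = 0.0251) and Top2a by 0.96 (SE 0.20, adjusted p = 0.0387); the remaining one was Mcm5, a replication helicase subunit, with 1.38 (SE 0.31, adjusted p = 0.0490). With 1 array left out Birc5 was called in 4 of 8 fits, and Tyms, Top2a and Mcm5 in 1, that without WT replicate 1. KO replicate 3, the lowest array for Syt13, Syt5 and Syt7, thus also had the lowest neuronal mean and the highest cell cycle mean among the kept arrays.

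The excluded WT array resembled KO replicate 3 in these means, with -1.09 for the neuronal genes and 1.73 for the cell cycle genes. The excluded KO array stood at 0.08 and 0.21. Among 6 measured progenitor genes 1 fell, Slc1a3, a glutamate transporter of radial glia, by 1.15 (SE 0.24, limma adjusted p = 0.0391), and was called in 1 of 8 fits with 1 array left out. Of the genes of blood, endothelium, meninges and microglia, 15 in all over the 4 lists, limma called 0, and 0 had an unadjusted p under 0.05; the smallest p in each list belonged to Hbb-bh1 (adjusted p = 0.245), Cldn5 (adjusted p = 0.329), Twist1 (adjusted p = 0.780) and Csf1r (adjusted p = 0.407).

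Of 8 measured genes of the caudal thalamus, where Gbx2 is expressed, 4 fell by the limma test and 4 did not pass, and the median difference of the list was -1.14. Gbx2 itself is among the 8 and among the 4 that fell, and it enters the median and the means of the list. Ntng1, a netrin-G adhesion protein of thalamic axons, fell by 3.17 (SE 0.25, adjusted p = 0.000635). Rora, a nuclear receptor, fell by 2.99 (SE 0.43, adjusted p = 0.0117). Calb2, the calcium buffer calretinin, was detected on no KO array and was at least 5.01-fold lower there (adjusted p = 0.0287). It passed the filter, detection on 4 of 8 arrays, through the WT arrays alone. Its p and its place among the 4 that fell are therefore not read as support. The mean of the list was -1.09, -1.18, -2.16 and -1.75 in KO replicates 1 to 4, beside -1.17, -1.41, -3.11 and -1.76 for Syt13 on the same scale. With 1 array left out, Ntng1 and Rora were called in 8 of 8 fits, Calb2 in 3, and Gbx2 in 2, those without WT replicate 1 or 2. Among the habenular and epithalamic genes 1, Rspo1, a secreted Wnt enhancer rose by 1.42 (SE 0.22, limma adjusted p = 0.0163) and was not called without KO replicate 4. Of 3 measured prethalamic and GABAergic genes limma called 0, with 1 at an unadjusted p under 0.05 and a median of -1.46. The smallest p was that of Slc32a1, the vesicular GABA transporter, at -1.46 (SE 0.63, adjusted p = 0.226). Of 4 pretectal and midbrain genes it also called 0, with 2 at an unadjusted p under 0.05 and a median of -0.76. The smallest p was that of Tfap2d, a transcription factor, at -1.42 (SE 0.42, adjusted p = 0.108), detected on 3 WT arrays and 1 KO array.

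**Figure D3:**
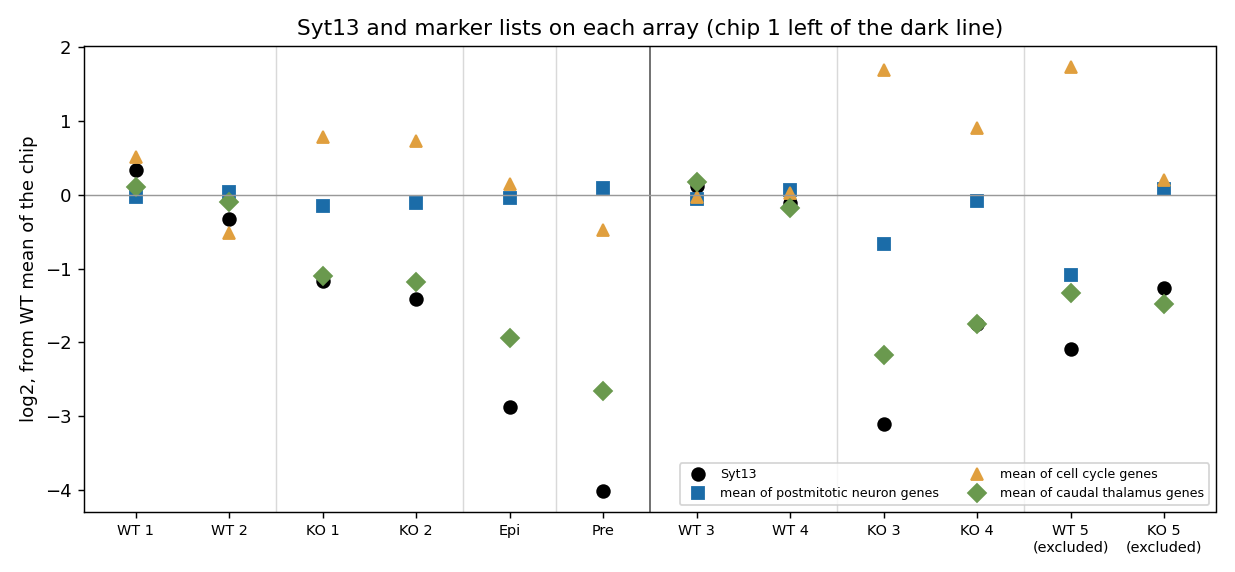
Log2 level of Syt13 (circles) and mean log2 level of genes of postmitotic neurons (squares), cell cycle (triangles) and caudal thalamus (diamonds) on each of the 12 arrays, each gene set to the WT mean of its chip. The caudal thalamus genes include Gbx2. In the kept KO arrays Syt13 lies between -1.17 and -3.11 and the neuronal mean between -0.09 and -0.66; in the prethalamus Syt13 lies at -4.01 while the neuronal mean is at 0.09.

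The regions beside the thalamus were compared on chip 1 with 1 array each, so no test was possible, and a member was counted where it differed by 1 or more from both WT thalamus arrays. Of the 6 members compared, 1 was higher in the epithalamus and 1 was lower, beside 1.42% of the 11424 genes compared in either direction. In the prethalamus 1 of the 6 was lower, beside 1.86% of genes. Both lower counts were Syt13 and the higher one was Syt6.

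Syt13 measured 6.31 in the epithalamus, with differences of -3.20 and -2.54 from WT replicates 1 and 2. In the prethalamus it measured 5.17 and was not detected. This was at least 14.4-fold lower than in WT thalamus under the main processing, from the WT mean against the lowest detected signal. The measured difference from the WT mean was -4.01, and its size depended on the processing. It was -2.41 with no background correction, -3.13 with an offset of 50 and -3.18 in the deposited log2 values. The order of Syt13 on chip 1 was WT thalamus, KO thalamus, epithalamus and prethalamus, and the lowest array of WT (8.85) and of KO (7.77) each stood above the highest array of the next group. The neuronal mean was -0.05 in the epithalamus and 0.09 in the prethalamus, and that of the caudal thalamus genes -1.94 and -2.66. Gbx2, a gene of the caudal thalamus list, stood at -7.17 and -5.25 on the same scale.

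Syt6 was higher in the epithalamus than in WT replicate 1 by 1.02. Against arrays where it was not detected its level in the epithalamus was at least 2.01-fold higher (WT replicate 2), at least 2.19-fold higher (the KO arrays of chip 1) and at least 2.43-fold higher (prethalamus). It is close to the background on each of these arrays, and without background correction its mean difference was 0.64, under the 1 asked for.

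No other member differed from both WT arrays by 1 or more. The brighter Syt1 probe measured 9.93 in the epithalamus and 10.35 in the prethalamus, near WT replicate 2 at 10.09 and above WT replicate 1 at 8.99. Syt5 measured 6.19 and 6.73, the second being above both WT arrays by 0.94 and 0.47. The Syt7 probe measured 6.64 and 6.11, the second lying below both WT arrays, and Syt11 measured 12.03 and 12.22. Syt1 in the prethalamus was 1.36 above WT replicate 1 but 0.26 above WT replicate 2, so that a comparison with WT replicate 1 alone counts it.

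**Figure D4:**
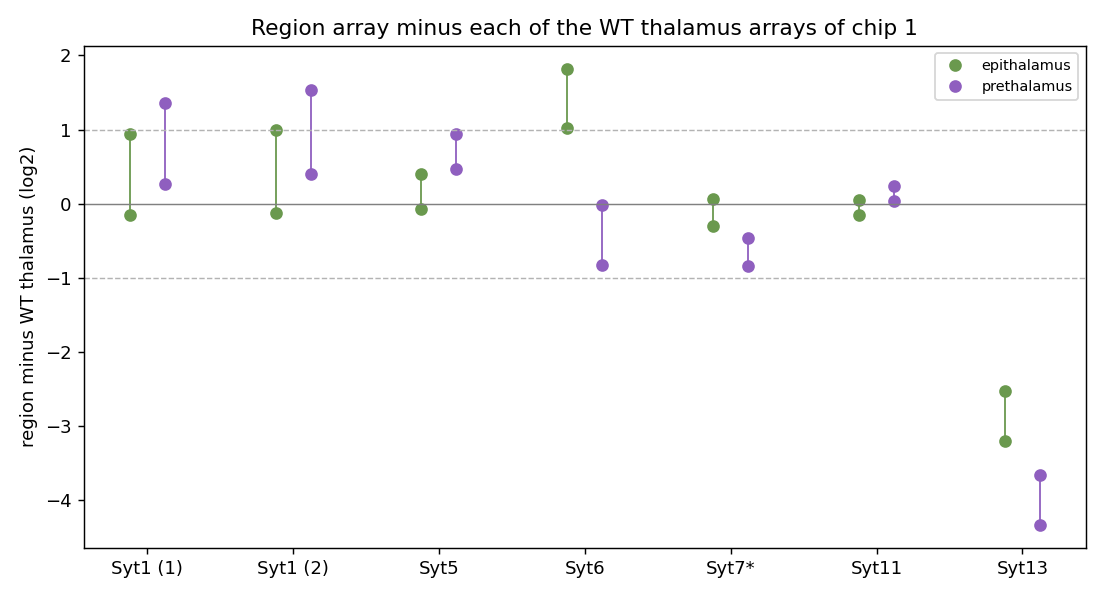
Log2 intensity of the epithalamus (green) and prethalamus (purple) array minus each of the WT thalamus arrays of chip 1, for every shared synaptotagmin probe with a detected value; the ends of a line are the differences from WT replicates 1 and 2, the dashed lines mark differences of 1, and the asterisk marks the clone-named Syt7 probe. Only Syt13 and, in the epithalamus, Syt6 lie beyond a dashed line with both ends.

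Of the other synaptotagmins 9 of 10 listed had a probe and 3 were measured over both chips. By limma 0 of these were called, and 1 of the 3 at an unadjusted p under 0.05. Syt16, an atypical member without calcium binding, measured -0.92 (SE 0.25, adjusted p = 0.0862) in KO minus WT, with -0.61 on chip 1 and -1.23 on chip 2, and every KO array lay below every WT array of its chip. Syt14, likewise without calcium binding, gave -0.08 (SE 0.19, adjusted p = 0.852) and Syt9, a calcium sensor of some limbic synapses, 0.04 (SE 0.20, adjusted p = 0.932).

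Of 14 proteins with a related arrangement of C2 domains that had a probe, 4 were measured. All 4 had positive differences, beside 4962 of the 10396 genes tested, and 1 rose by the limma test, as did 144 of all genes tested. Esyt1, which tethers the endoplasmic reticulum to the plasma membrane and does not act in vesicle fusion, rose by 1.35 (SE 0.19, adjusted p = 0.00984) and was called in 8 of 8 fits with 1 array left out. Its relatives Esyt2 and Esyt3 gave 0.89 (SE 0.34, adjusted p = 0.176) and 0.32 (SE 0.15, adjusted p = 0.265). Esyt2 was detected on 2 WT and 2 KO arrays, and on no array of chip 1, where its difference was 0.32 beside 1.46 on chip 2. Doc2b, a calcium sensor of spontaneous release, gave 0.87 (SE 0.33, adjusted p = 0.174) and was detected on 2 WT and 4 KO arrays.

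The machinery that synaptotagmins work with was followed through 6 lists of 90 genes, 54 of which were measured. By the limma test 2 fell, 0 rose and 52 did not pass, beside 2.87% of all genes called in either direction and 1.48% called lower. Of the 54 differences 36 were negative, beside 5434 of the 10396 over all genes tested, and their median was -0.32. Both genes that fell act in preparing vesicles for release. Cadps, a priming factor of dense-core vesicles, fell by 1.06 (SE 0.16, adjusted p = 0.0145), with -0.99 on chip 1 and -1.13 on chip 2. Rims2, an active zone scaffold that recruits calcium channels and priming factors, fell by 0.99 (SE 0.20, adjusted p = 0.0373). With 1 array left out, Cadps lay between -1.11 and -0.98 and was called in 6 of 8 fits (not without WT replicate 4 or KO replicate 1), and Rims2 lay between -1.15 and -0.86 and was called in 1, without WT replicate 1.

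Among 7 measured SNARE proteins, whose assembly drives membrane fusion, 0 were called by limma, 1 had an unadjusted p under 0.05, and the median difference was -0.28. The smallest p belonged to the vesicle SNAREs Vamp2, with -0.41 (SE 0.16, adjusted p = 0.184), and Vamp1, with -0.40 (SE 0.19, adjusted p = 0.265). The 13 measured SNARE regulators and priming factors, Cadps among them, had a median of 0.04, with 8 differences above 0 and 5 below. The 8 measured active zone genes, with Rims2, had a median of -0.32.

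The 14 measured genes of the synaptic vesicle membrane and coat had a median of -0.47, with 12 differences below 0, beside 5434 of all 10396 genes tested. By limma 0 of them were called and 7 had an unadjusted p under 0.05, beside 2168 of the same 10396 genes. Sv2a, a vesicle glycoprotein that binds Syt1, differed by -0.81 on chip 1 and -1.19 on chip 2 (SE 0.28 over both, adjusted p = 0.0902), and Svop, a related transporter-like protein, -0.77 (SE 0.21, adjusted p = 0.0922). Of 8 dense-core vesicle and granule genes 0 were called by limma, 1 had an unadjusted p under 0.05 and the median was -0.36, with Chgb, a granule matrix protein, at -0.96 (SE 0.36, adjusted p = 0.174) and Pcsk1n at -0.72 (SE 0.33, adjusted p = 0.250). On chip 2 alone 1 further gene of that list fell, the secreted granule protein Vgf, named here after its value was seen. It measured 8.27 and 8.16 in WT and was not detected in either KO array. This was at least 5.22-fold lower under the main processing (2 against 2 arrays, limma adjusted p = 0.0110). Vgf passed the chip 2 filter, detection on 2 of 4 arrays, through the WT arrays alone, so this p is not read as support. The measured difference of Vgf was -2.90, but -1.44 with no background correction. With both arrays of replicate 5 included it was -1.86, and Vgf was not called (limma adjusted p = 0.923). Without KO replicate 3 it was not called (adjusted p = 0.135).

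The 4 measured neurexins and neuroligins, adhesion proteins that join the release site to its target, had a median of -0.88. By limma 0 were called and 3 had an unadjusted p under 0.05, beside 2168 of the 10396 genes tested. Nlgn1 measured -1.15 (SE 0.32, adjusted p = 0.0937) and Nrxn2 -0.89 (SE 0.29, adjusted p = 0.131) by limma. The lists differ in size and were not tested against each other or against the rest of the genes.

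**Figure D5:**
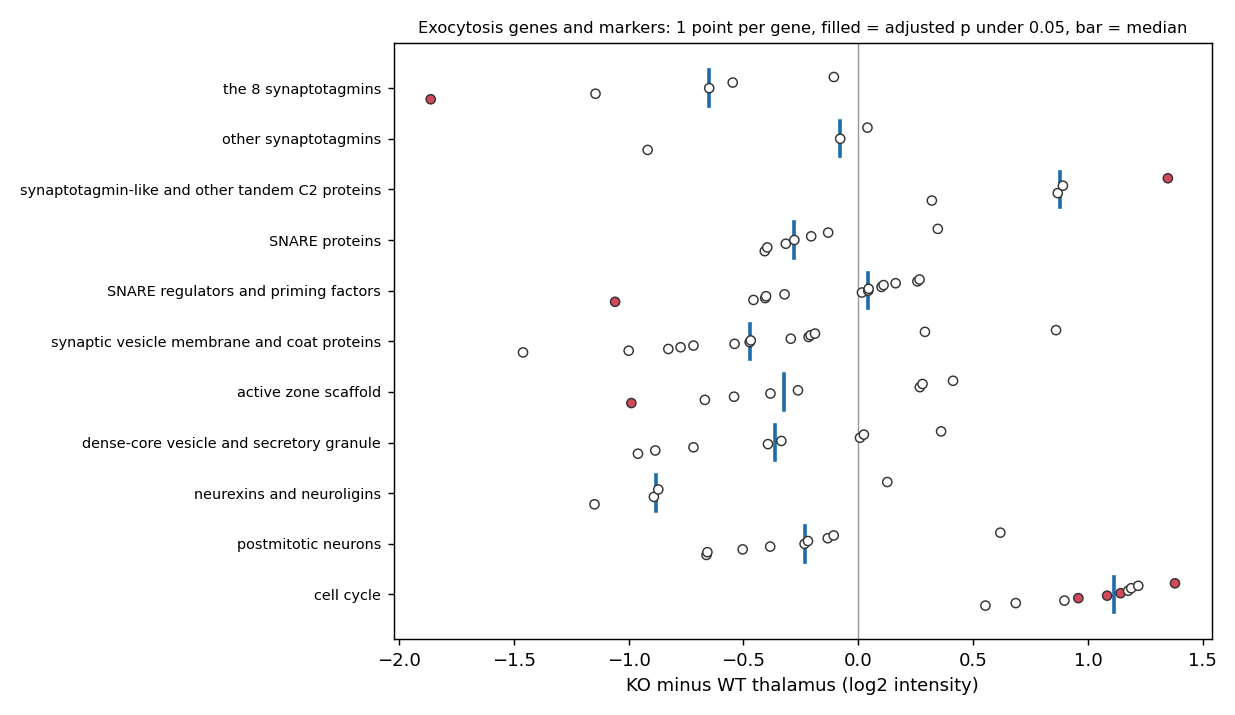
KO minus WT difference in log2 intensity (horizontal axis) of each measured gene, 1 point per gene and 1 row per list; filled points have a limma adjusted p under 0.05, open points do not, and the bar is the median of the list. Syt13 at -1.86 is the lowest point of the rows shown, Cadps and Rims2 are the filled points of the exocytosis lists, and the cell cycle row lies to the right of 0 with a median of 1.11.

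For the 2 members with the widest differences, the 5 genes with the most similar pattern over 10 arrays, each gene set to the WT mean of its chip, were found by Pearson's r as a description. For Syt13 these were Vat1l (r = 0.955), Setd7 (r = 0.932), Acer2 (r = 0.919), Crabp2 (r = 0.916) and Prmt8 (r = 0.913). The epithalamus and prethalamus are among the 10 arrays, so low values there are part of the likeness; all 5 were below the WT mean in both, from -0.24 (Setd7) to -2.46 (Crabp2, a retinoic acid binding protein) in the epithalamus. For Syt5 they were Adam11 (r = 0.994), Zbtb8b (r = 0.989), Cmip (r = 0.984), Nat14 (r = 0.982) and Tmem59 (r = 0.982). None of these 10 genes was called in KO minus WT by limma, with adjusted p-values from 0.0719 for Prmt8 to 0.601 for Setd7. The arrays share chips, and for Syt5 the single array of KO replicate 3 spans most of the range.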

How the data were processed

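The members and the gene lists were chosen with earlier results of these data known. Deposited tables hold bead intensity values on a linear scale, not normalised, per the file headers (GenomeStudio 1.1.1 on chip 2). BeadStudio and lumi are also named in the submitters' processing notes. The deposited detection columns hold a fraction that lies near 1 for bright probes, and 1 minus this fraction served as detection p. The deposited normalised tables hold log2 values, by a method not given in the sources used here, with column medians from 7.14 to 7.16. They served as an alternative.

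Of 31459 joined probes 31448 were used. Names came from RefSeq's table of GRCm38.p6. Signals were processed per chip with neqc (limma 3.58.1, R 4.3.3, offset 16). Probes detected at p under 0.05 on 4 of 8 arrays were kept, the brightest per gene. KO and WT were compared with lmFit and eBayes, two-sided, with a chip term, and Benjamini-Hochberg adjustment at 0.05 over all genes tested. The fit was tested on simulated data. Named were all members, measured family genes, up to 6 called genes of each exocytosis list (or the 2 with the smallest p), up to 3 of each marker list (or 1; Mcm5, Gad1, Msx1, Etv1, Nr4a2, Gng8 and Vgf were added after their values were seen), and the 5 most similar genes for the 2 widest members. A gene not detected in a group has a bound, from the brighter mean against the lowest detected signal. Such a bound holds for the main processing only. The number of arrays limits the precision.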

Additional observations from a re-analysis of the deposited data

Results flagged for a closer look

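Among the 4 kept KO arrays, replicate 3 stood apart from the others in the Syt7 clone-named probe, at -0.80 relative to the mean of all kept arrays of its chip. Of 10 groups screened this was the 1 found. The limit set for the gap has a nominal chance rate of about 1 in 20 groups. That rate is for independent values, and whether it holds for values centred by chip was not tested. The same array had the lowest neuronal mean (-0.66) and the highest cell cycle mean (1.69) of the kept arrays; the part of this in the Syt7 value was not tested.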

How the results depend on the processing

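The differences of Syt13, Syt5, Syt1, Syt7 and Syt11 were negative under every alternative run, 19 each except 18 for Syt5, which is not detected on all 8 arrays. The runs reuse the same arrays, and the same contrast chose the members, so the shared sign is not read as support. For Syt13 the replicate block, no chip term, no detection filter, detection on all 8 arrays and the mean of probes all return the main -1.86. Syt13 ranged from -1.29 (chip 1 alone) to -2.43 (chip 2 alone) and was called under 9 of 19; the other 4 were called under none of these fits of joined probes. The count of members called went from 1 to 0 with no chip term, no detection filter, replicate 5 included, chip 1 alone or chip 2 alone, and lay between 0 and 1 when 1 array was left out. Genes called numbered 298, and between 63 (without KO replicate 1) and 612 (without WT replicate 1) with 1 array left out. They numbered 0 with no chip term, 189 with no background correction, 591 in the deposited log2 values, 84 with no detection filter, 15 with replicate 5 included, 0 on chip 1 alone and 45 on chip 2 alone. At an unadjusted p under 0.05 limma counted 2168 in the main fit, 74 with no chip term and 1012 on chip 1 alone. The share of calls that were lower was 51.7%, but 84.4% on chip 2 alone, 64.3% with no filter, and between 46.2% and 78.3% with 1 array left out.

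Deviations of same-numbered KO and WT arrays from their group means correlated at -0.11 on chip 1 and 0.11 on chip 2. With 2 arrays of each genotype on a chip this gives 1 value per chip, which cannot tell whether the numbers pair arrays. With a replicate block 363 genes were called, Syt13 among them. Syt16 was then called beside Esyt1, a count of 2, as in the deposited log2 values. The count for the rest of the family was 0 with no chip term, replicate 5 included and either chip alone, and 1 in each fit with an array left out. Exocytosis calls numbered 4 under the replicate block and in the deposited values, 1 with no background correction or no filter, 0 with no chip term, with replicate 5 or on either chip alone, and 0 to 5 with an array left out. Chip 2 probes called numbered 112, and 2341 with the replicate block, 60 with no background correction, 4 with replicate 5, 0 with no filter and 0 to 689 with an array left out, 0 being without KO replicate 3. Among these, Syt13 was called with the block and without WT replicate 3, WT replicate 4 or KO replicate 4, and Syt5 with the block and without KO replicate 4. The epithalamus count went from 2 to 1 with no background correction, an offset of 50 or the deposited values, all of which lost Syt6; the prethalamus count was 1 to 2 with a WT array left out. The causes were not tested. Syt2 and the 3 probes named Syt7 were not above background on any array compared, and Syt6 on few.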

Other observations

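Where Syt13 was low in the prethalamus, other genes of vesicle release differed in both directions on the same array. Of 57 exocytosis genes compared on chip 1, 5 were higher there than in both WT thalamus arrays by 1 or more and 1 was lower, beside 1.86% of all genes in either direction. In the epithalamus 1 was higher and 0 were lower, beside 1.42%; the genes below were named after their values were seen. The vesicular transporters showed the widest differences. Slc32a1, which loads GABA, was 5.45 and 2.55 above WT thalamus replicates 1 and 2 in the prethalamus and 4.08 and 1.17 above in the epithalamus. Slc17a6, which loads glutamate, differed by -3.31 and -3.34 in the prethalamus. Nrxn3, a presynaptic adhesion protein, was 2.43 and 1.60 above WT thalamus in the prethalamus, and Syn2, a synapsin, 1.91 above replicate 1 and at least 3.58-fold higher than in replicate 2, where it was not detected. Pclo, an active zone scaffold, was 1.06 above replicate 1 and at least 2.16-fold higher than in replicate 2, where it was not detected. Scg2, a granin, was detected in neither and was at least 2.62-fold and 2.22-fold higher. These are single arrays, and no test was possible.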
